A study of Mus musculus with 13 samples.

Results

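The contractile smooth muscle apparatus was followed through 35 genes chosen by name: smooth muscle actins, myosins, the switch that phosphorylates myosin, thin filament proteins, dense body and intermediate filament proteins, and the transcription factors behind them. Each of the 35 symbols matched exactly 1 of the 21225 features measured in mouse aorta. Among them 2 are actins, 4 myosin chains, 7 parts of the phosphorylation switch, 9 thin filament proteins, 9 intermediate filament or dense body proteins and 4 transcription factors.

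The arrays came from whole aorta of male C57BL/6 mice in 4 groups: 3 aged knockout, 3 young knockout, 4 aged MR-intact and 3 young MR-intact. Aged mice were 12 months old and young mice 3 to 4 months. Knockout mice (SMC-MR-KO) have no mineralocorticoid receptor (MR) in their smooth muscle cells; this receptor, the product of Nr3c2, binds aldosterone. MR-intact mice are labelled wildtype. The sources used here name neither the Cre line behind the deletion nor the animals behind each array. The p-values therefore measure only how far these arrays vary, and that variation may be technical. The sample titles carry 1 letter for every aged array and another for every young array; an effect of whatever it marks cannot be told apart from age.

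A smooth muscle cell shortens when calcium and calmodulin activate myosin light chain kinase, which phosphorylates the regulatory light chain and lets myosin pull on actin. Myosin phosphatase reverses this step, and the kinases encoded by Rock1 and Rock2 hold the phosphatase back. Force passes through dense bodies and adhesion plaques to desmin filaments and the cell surface. In arteries most of these genes are switched on by serum response factor (SRF) with its cofactor myocardin, and SRF binds a DNA element called the CArG box. Klf4 is known for opposing that program.

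CArG boxes near the start sites are shown because they are the element that SRF binds. RefSeq promoter windows of 300 bases (GRCm38.p6, 250 before to 50 after the start) were found for 29 of the 35 genes, and an exact CArG box, searched on both strands, lay in 5 of the 29 (17.2%). Among all 27025 genes with such windows, 488 (1.81%) held one. A box with 1 mismatch in its core was found in 4 of the 29 (13.8%), against 9.69% of all genes; these were Acta2, Synm, Pdlim3 and Myl9, the last of which also holds an exact box. Capitals mark the box: exact in Myl9 (chr2:156775278-156775337, plus strand), Cnn2 (chr10:79988519-79988578, plus), Myl6 (chr10:128493025-128493084, minus), Filip1l (chr16:57549155-57549214, plus) and Srf (chr17:46556190-46556269, minus), and with 1 core mismatch in Acta2 (chr19:34255374-34255482, minus).
Myl9: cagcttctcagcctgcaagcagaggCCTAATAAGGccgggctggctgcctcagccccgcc
Cnn2: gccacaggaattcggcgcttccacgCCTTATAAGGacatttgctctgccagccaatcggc
Myl6: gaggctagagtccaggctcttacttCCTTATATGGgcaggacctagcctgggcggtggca
Filip1l: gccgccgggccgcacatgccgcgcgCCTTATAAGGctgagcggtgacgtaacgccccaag
Srf: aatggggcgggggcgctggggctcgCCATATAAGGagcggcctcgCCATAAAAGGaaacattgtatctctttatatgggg
Acta2: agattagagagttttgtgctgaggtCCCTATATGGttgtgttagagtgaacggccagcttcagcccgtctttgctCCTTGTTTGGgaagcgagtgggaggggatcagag
Srf and Acta2 carry 2 boxes each in these windows. A match is a run of letters and does not show that SRF binds there.

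**Figure D1:**
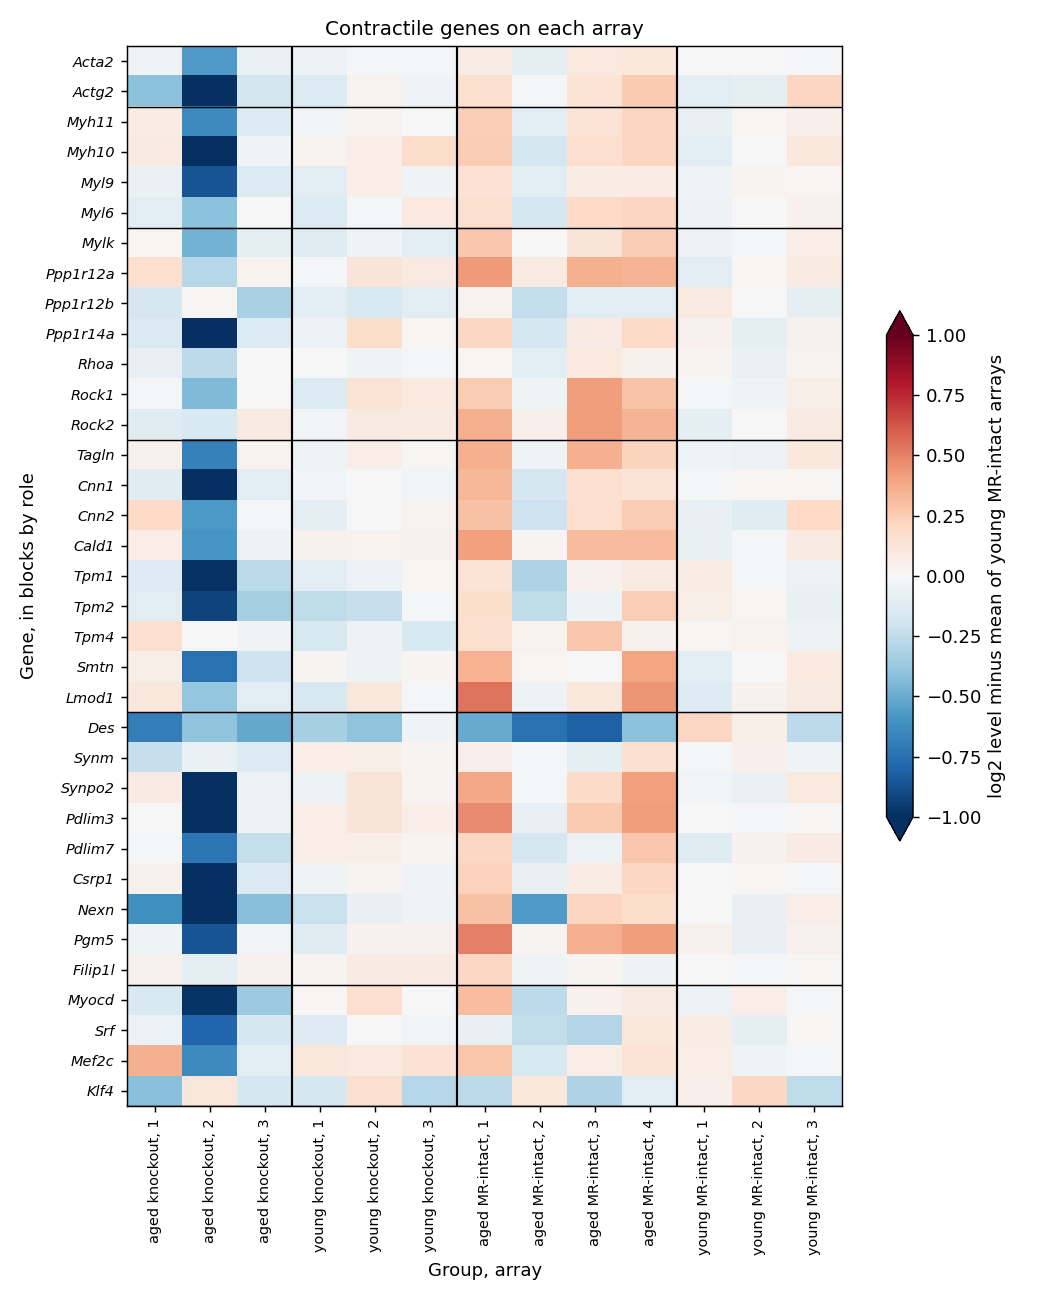
Each row is a contractile gene and each column an array, grouped by role and by group; colour gives the log2 level minus the mean of the 3 young MR-intact arrays, cut at -1 and 1. Aged knockout array 2 is the darkest blue column, lowest of all 13 arrays for 30 of the 35 genes, and Des is low on the aged arrays of both genotypes.

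On 1 of the arrays the apparatus stood far below all others. Aged knockout array 2 was the lowest of all 13 arrays for 30 of the 35 contractile genes, against 17.2% of all features. The exceptions were Ppp1r12b, Tpm4, Des, Synm and Klf4. The same array was the highest of all 13 for 19.9% of all features and for 0 of the 35. Both of these shares of all features were the largest of any array. Set against the mean of aged knockout arrays 1 and 3, array 2 had a median log2 difference of -0.62 over the 35 genes and 0.02 over all features. The median SD of a contractile gene was 0.37 in aged knockout and 0.07 in young knockout aorta, against 0.18 in aged MR-intact and 0.07 in young MR-intact aorta. Over all features these medians were 0.15 and 0.10, against 0.11 and 0.09.

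Other cell types differed on the same array. The mean log2 level of 6 liver markers was 6.95 there, against 4.22 to 5.48 on the other 12. Each of these 6 genes was at its highest there, among them Alb (albumin) at 9.82. Th (tyrosine hydroxylase of catecholamine cells) read 7.43 on it, against 4.33 to 6.46 elsewhere. Of 10 adipocyte markers 7 were at their highest there (19.9% of all features), with a mean of 11.28 against 10.62 to 11.06 on the other 12. Of 9 fibroblast markers 6 were at their lowest of the 13 arrays there (17.2% of all features). B lymphocyte and plasma cell markers (10 genes) averaged 6.99 to 8.66 on the 3 aged knockout arrays and 5.30 to 6.61 on the young knockout arrays, against 5.48 to 5.86 on the aged and 5.21 to 5.76 on the young MR-intact arrays. T lymphocyte markers (7 genes) averaged 5.60 to 6.97 on aged and 4.96 to 5.66 on young knockout arrays, against 5.14 to 5.64 on aged and 5.08 to 5.34 on young MR-intact arrays. Endothelial (14 genes), macrophage (10) and erythroid markers (2 measured) had overlapping means in aged knockout and aged MR-intact aorta, at 8.05 to 8.43 against 8.08 to 8.16, 7.70 to 7.83 against 7.64 to 7.88, and 8.64 to 9.05 against 9.03 to 9.19. The endothelial 8.43 came from aged knockout array 2, where 6 of the 14 genes were at their highest and 1 at its lowest. Young MR-intact arrays averaged 8.21 to 8.44. Both erythroid genes were at their lowest on aged knockout array 2. Of the 10 macrophage markers 2 were at their highest and 2 at their lowest there. The part of these cells in the results was not tested. Array medians lay between 5.85 and 5.97. Nr3c2 averaged 6.31 ± 0.24 in aged and 6.26 ± 0.17 in young knockout aorta (SD, n = 3 each), against 7.01 ± 0.21 in aged (n = 4) and 6.66 ± 0.04 in young MR-intact aorta (n = 3). Where the probes lie relative to the deletion is unknown, so these levels do not test it.

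In aged mice, knockout aorta gave lower values than MR-intact aorta for 34 of the 35 contractile genes, with Des the exception. None passed the test: limma on all 13 arrays called 0 of the 35 and 12 of all features (0.0565%) at a Benjamini-Hochberg adjusted p under 0.05. The median log2 difference was -0.39 over the contractile genes and 0.02 over all features. An unadjusted p under 0.05 was reached by 25 of the 35, all lower, against 17.6% of all features. In whole tissue, fewer smooth muscle cells and less RNA per cell cannot be told apart. With aged knockout array 2 left out, 31 of the 35 were still lower, but the median difference was -0.19 (0.01 over all features), 9 had an unadjusted p under 0.05 (11.5% of all features) and limma again called 0.

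**Figure D2:**
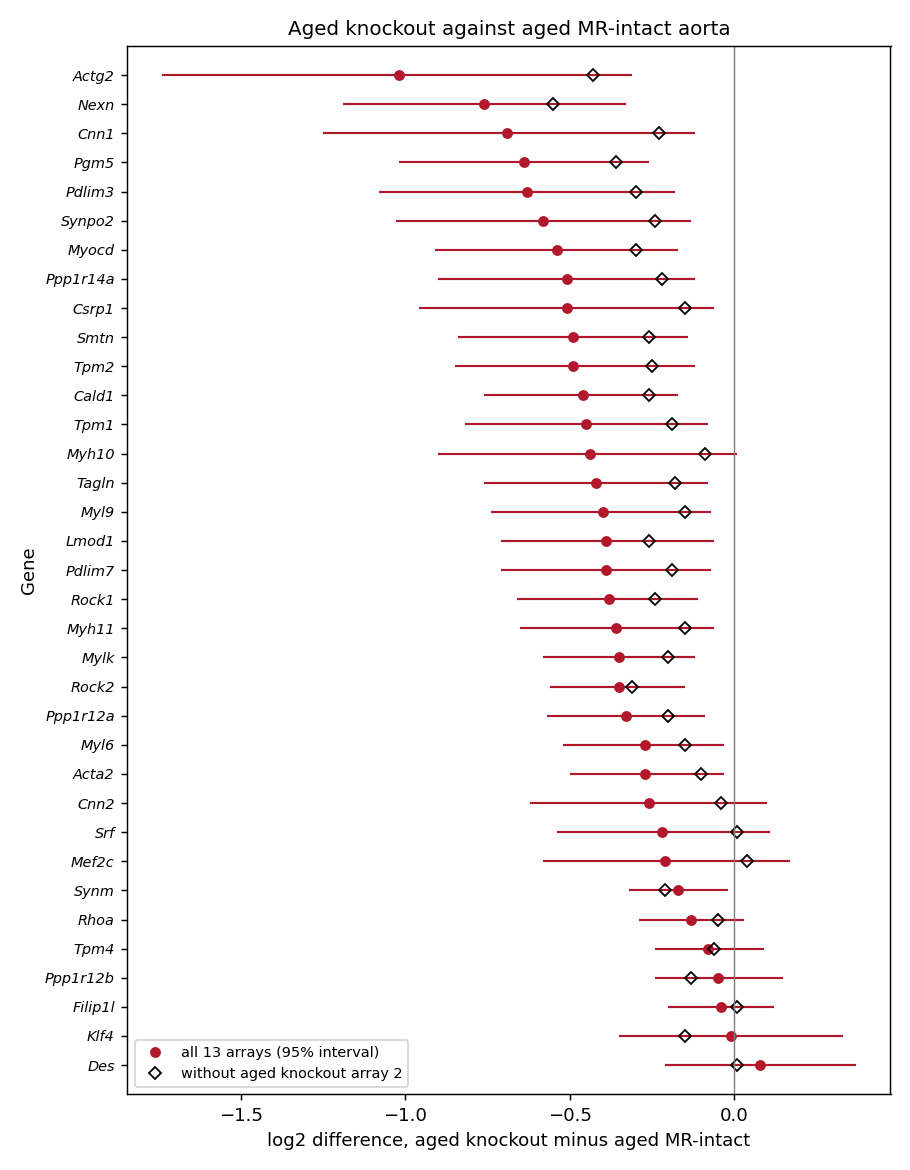
Points give the log2 difference, aged knockout minus aged MR-intact, of each contractile gene with its 95% interval (lines); open diamonds give the same difference without aged knockout array 2. Actg2 lies at -1.02 with all arrays and at -0.43 without array 2, Rock2 at -0.35 and -0.31, and Des at 0.08 and 0.01.

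The actin genes were both lower in aged knockout aorta. Actg2 encodes the gamma actin best known from gut and bladder muscle, and read 9.10, 7.44 and 9.32 on aged knockout arrays 1 to 3, against 9.67, 9.49, 9.64 and 9.77 on aged MR-intact arrays 1 to 4. These groups did not overlap, and array 2 stood at -1.66 from the lowest of the other 12 arrays. The log2 difference was -1.02 (SE 0.33, limma adjusted p = 0.137), and -0.43 (SE 0.11, limma adjusted p = 0.147) without array 2. Young arrays read 9.37, 9.54 and 9.47 in knockout and 9.39, 9.41 and 9.72 in MR-intact aorta. Acta2, the alpha actin that makes up most of the thin filament in arterial muscle, read 12.89, 12.36 and 12.86 on aged knockout arrays, against 13, 12.83, 13.02 and 13.03 on aged MR-intact arrays. Its difference was -0.27 (SE 0.11, limma adjusted p = 0.227), and -0.10 without array 2. Young knockout arrays gave 12.87, 12.90 and 12.91 for Acta2 and young MR-intact arrays 12.93, 12.93 and 12.91, a spread narrower than in either aged group. Only Actg2 and Pgm5, 2 of the 35, had aged knockout arrays wholly below the aged MR-intact ones (5.11% of all features), and 0 of the 35 lay wholly above (5.25% of all features).

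Myosin genes differed by -0.44 to -0.27. Myh11, the smooth muscle myosin heavy chain, read 11.98, 11.27 and 11.77 on aged knockout arrays and 11.88, 11.94 and 11.91 on young knockout arrays. On aged MR-intact arrays it read 12.15, 11.80, 12.04 and 12.12, and on young ones 11.83, 11.93 and 11.96. Aged knockout array 1 thus lay within the aged MR-intact range, and the difference of -0.36 (SE 0.14, limma adjusted p = 0.202) was -0.15 without array 2. Myh10, a nonmuscle myosin heavy chain, read 9.98, 8.88 and 9.86 on aged knockout and 9.93, 9.96 and 10.08 on young knockout arrays, against 10.15, 9.72, 10.06 and 10.11 on aged and 9.78, 9.90 and 10 on young MR-intact arrays. Here too array 2 stood alone, at -1.04 from the mean of the other aged knockout arrays. The light chain genes Myl9 (regulatory) and Myl6 (essential), which carry the CArG boxes shown above, differed by -0.40 and -0.27.

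Among the 7 genes of the phosphorylation switch, differences between aged knockout and aged MR-intact aorta ran from -0.51 to -0.05. Rock2, one of the kinases that restrain myosin phosphatase, depended little on array 2. It read 9.64, 9.61 and 9.85 on aged knockout and 9.73, 9.85 and 9.85 on young knockout arrays, against 10.12, 9.81, 10.18 and 10.10 on aged and 9.67, 9.76 and 9.85 on young MR-intact arrays. Array 2 of the MR-intact group overlapped the knockout range, and the other 3 aged MR-intact arrays lay above every other array. The difference was -0.35 (SE 0.09, limma adjusted p = 0.0962), and -0.31 without aged knockout array 2. Its relative Rock1 differed by -0.38 (limma adjusted p = 0.144) and Mylk, myosin light chain kinase, by -0.35 (limma adjusted p = 0.125).

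Ppp1r14a (CPI-17), the phosphatase inhibitor, read 9.05, 8.18 and 9.06 on aged knockout and 9.14, 9.38 and 9.22 on young knockout arrays, against 9.40, 9.03, 9.28 and 9.39 on aged and 9.24, 9.11 and 9.24 on young MR-intact arrays. The difference in aged mice was -0.51 (SE 0.18, limma adjusted p = 0.169). For Ppp1r12a, the targeting subunit of myosin phosphatase, values were 10.44, 9.99 and 10.31 on aged knockout and 10.26, 10.40 and 10.36 on young knockout arrays, against 10.70, 10.36, 10.63 and 10.61 on aged and 10.17, 10.29 and 10.36 on young MR-intact arrays. Kinase, phosphatase and inhibitor thus shared a sign, at -0.35, -0.33 and -0.51. The related subunit Ppp1r12b did not follow array 2: it read 6.71, 6.89 and 6.55 on aged knockout arrays, against 6.91, 6.63, 6.77 and 6.77 on aged MR-intact arrays, a difference of -0.05. Rhoa, a small GTPase upstream of Rock1 and Rock2, differed by -0.13.

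Thin filament genes ranged from -0.69 to -0.08. Cnn1, basic calponin, read 11.47, 10.12 and 11.48 on aged knockout and 11.56, 11.59 and 11.56 on young knockout arrays, against 11.92, 11.42, 11.76 and 11.73 on aged and 11.57, 11.60 and 11.60 on young MR-intact arrays. The difference of -0.69 (SE 0.26, limma adjusted p = 0.192) was -0.23 without array 2. Tagln (SM22 alpha), an actin-binding protein widely used as a smooth muscle marker, read 11.45, 10.73 and 11.44 on aged knockout arrays, against 11.76, 11.36, 11.76 and 11.63 on aged MR-intact arrays. For both genes aged MR-intact array 2 lay below aged knockout arrays 1 and 3. Smtn, smoothelin of the actin filaments in differentiated muscle, read 11, 10.20 and 10.74 on aged knockout arrays, against 11.29, 10.96, 10.94 and 11.34 on aged MR-intact arrays. Tagln differed by -0.42 (SE 0.16) and Smtn by -0.49 (SE 0.16), with limma adjusted p = 0.186 and 0.148. Caldesmon (Cald1), which restrains actin-activated myosin, read 10.39, 9.73 and 10.27 on aged knockout arrays and 10.73, 10.35, 10.64 and 10.64 on aged MR-intact arrays. Its difference was -0.46 (SE 0.14, limma adjusted p = 0.115), and -0.26 without array 2.

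The tropomyosin genes, whose products lie along the actin filament, split. Tpm1 and Tpm2 differed by -0.45 and -0.49, and Tpm4 by -0.08. Tpm1 read 10.33, 9.47 and 10.19 on aged knockout and 10.35, 10.40 and 10.48 on young knockout arrays, against 10.59, 10.15, 10.50 and 10.55 on aged and 10.53, 10.44 and 10.40 on young MR-intact arrays. Tpm2 read 9.70, 8.89 and 9.48 on aged knockout and 9.56, 9.58 and 9.79 on young knockout arrays, against 9.99, 9.56, 9.76 and 10.06 on aged and 9.87, 9.83 and 9.74 on young MR-intact arrays. Both genes were thus lowest on aged knockout array 2. Tpm4 read 9.53, 9.37 and 9.33 on aged knockout and 9.20, 9.31 and 9.21 on young knockout arrays, against 9.52, 9.40, 9.63 and 9.41 on aged and 9.38, 9.40 and 9.31 on young MR-intact arrays. Array 2 was unremarkable for this gene. Leiomodin (Lmod1), an actin nucleator, read 8.41, 7.91 and 8.19 on aged knockout arrays, against 8.84, 8.25, 8.41 and 8.74 on aged MR-intact arrays, and differed by -0.39. Calponin 2 (Cnn2), with an exact CArG box, differed by -0.26.

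In the dense body and filament group 8 of 9 genes were lower in aged knockout than in aged MR-intact aorta. Nexn, which binds actin filaments, had the smallest limma adjusted p of the 35. It read 7.38, 6.85 and 7.57 on aged knockout and 7.77, 7.92 and 7.96 on young knockout arrays, against 8.29, 7.43, 8.21 and 8.17 on aged and 8.0, 7.92 and 8.06 on young MR-intact arrays. All 3 aged knockout values lay below every young array, while aged MR-intact array 2 overlapped them. The difference was -0.76 (SE 0.20, limma adjusted p = 0.0916), and -0.55 (limma adjusted p = 0.271) without array 2. Pgm5 (aciculin), an adhesion plaque protein, read 10.17, 9.35 and 10.18 on aged knockout and 10.09, 10.25 and 10.25 on young knockout arrays, against 10.71, 10.24, 10.57 and 10.63 on aged and 10.25, 10.13 and 10.25 on young MR-intact arrays. Aged knockout arrays 1 and 3 lay within the young range, and 3 of the 4 aged MR-intact arrays lay above it. Its difference was -0.64 (SE 0.18, limma adjusted p = 0.103), and -0.36 without array 2.

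Pdlim3 and Synpo2, scaffold proteins at sites where actin is anchored, gave the next values. Pdlim3 read 10.42, 9.39 and 10.36 on aged knockout and 10.49, 10.55 and 10.49 on young knockout arrays, against 10.89, 10.34, 10.68 and 10.84 on aged and 10.42, 10.41 and 10.43 on young MR-intact arrays. Synpo2 read 10.33, 9.22 and 10.19 on aged knockout arrays and 10.64, 10.24, 10.44 and 10.66 on aged MR-intact arrays. The differences were -0.63 (SE 0.21, limma adjusted p = 0.142) and -0.58 (SE 0.21, limma adjusted p = 0.175), and in both genes array 2 stood at -0.96 from the lowest other array. The LIM protein gene Csrp1 read 12.10, 10.93 and 11.91 on aged knockout arrays, against 12.28, 11.98, 12.13 and 12.26 on aged MR-intact arrays. It differed by -0.51 (SE 0.21), and by -0.15 without array 2. Pdlim7, another LIM protein gene, differed by -0.39. Synm, an intermediate filament protein, differed by -0.17 with array 2 and by -0.21 without it, and Filip1l by -0.04.

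Des, which encodes the desmin of muscle intermediate filaments, was the single gene above 0 at 0.08 (SE 0.14, limma adjusted p = 0.815). It read 8.18, 8.47 and 8.36 on aged knockout arrays, against 8.37, 8.13, 8.06 and 8.46 on aged MR-intact arrays, and the groups overlapped.

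Of the transcription factors, Myocd differed the most. This gene for myocardin read 9.17, 8.34 and 8.96 on aged knockout and 9.33, 9.49 and 9.32 on young knockout arrays, against 9.63, 9.06, 9.36 and 9.41 on aged and 9.26, 9.39 and 9.31 on young MR-intact arrays. All aged knockout values lay below every young array, and aged MR-intact array 2 lay among them. The difference between the aged groups was -0.54 (SE 0.17, limma adjusted p = 0.133), and -0.30 without array 2. Srf differed by -0.22 and Mef2c, a MADS-box factor of muscle, by -0.21. Mef2c read 8.96, 7.97 and 8.50 on aged knockout arrays, against 8.88, 8.44, 8.67 and 8.74 on aged MR-intact arrays, so its aged knockout values spanned the whole range of the other group. Klf4 gave -0.01 (SE 0.16): it read 7.34, 7.87 and 7.59 on aged knockout and 7.59, 7.92 and 7.47 on young knockout arrays, against 7.49, 7.87, 7.45 and 7.64 on aged and 7.81, 7.96 and 7.50 on young MR-intact arrays. On array 2 Klf4 was 0.41 above the mean of the other aged knockout arrays, opposite in sign to Myocd (-0.73) and Srf (-0.67). The 5 genes with an exact CArG box (Myl9, Cnn2, Myl6, Filip1l and Srf) were all at their lowest on array 2, by -0.77, -0.67, -0.36, -0.14 and -0.67 against arrays 1 and 3. The same held for 30 of the 35 contractile genes (85.7%), and the median of all 35 was -0.62. A link to the box was not tested.

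**Figure D3:**
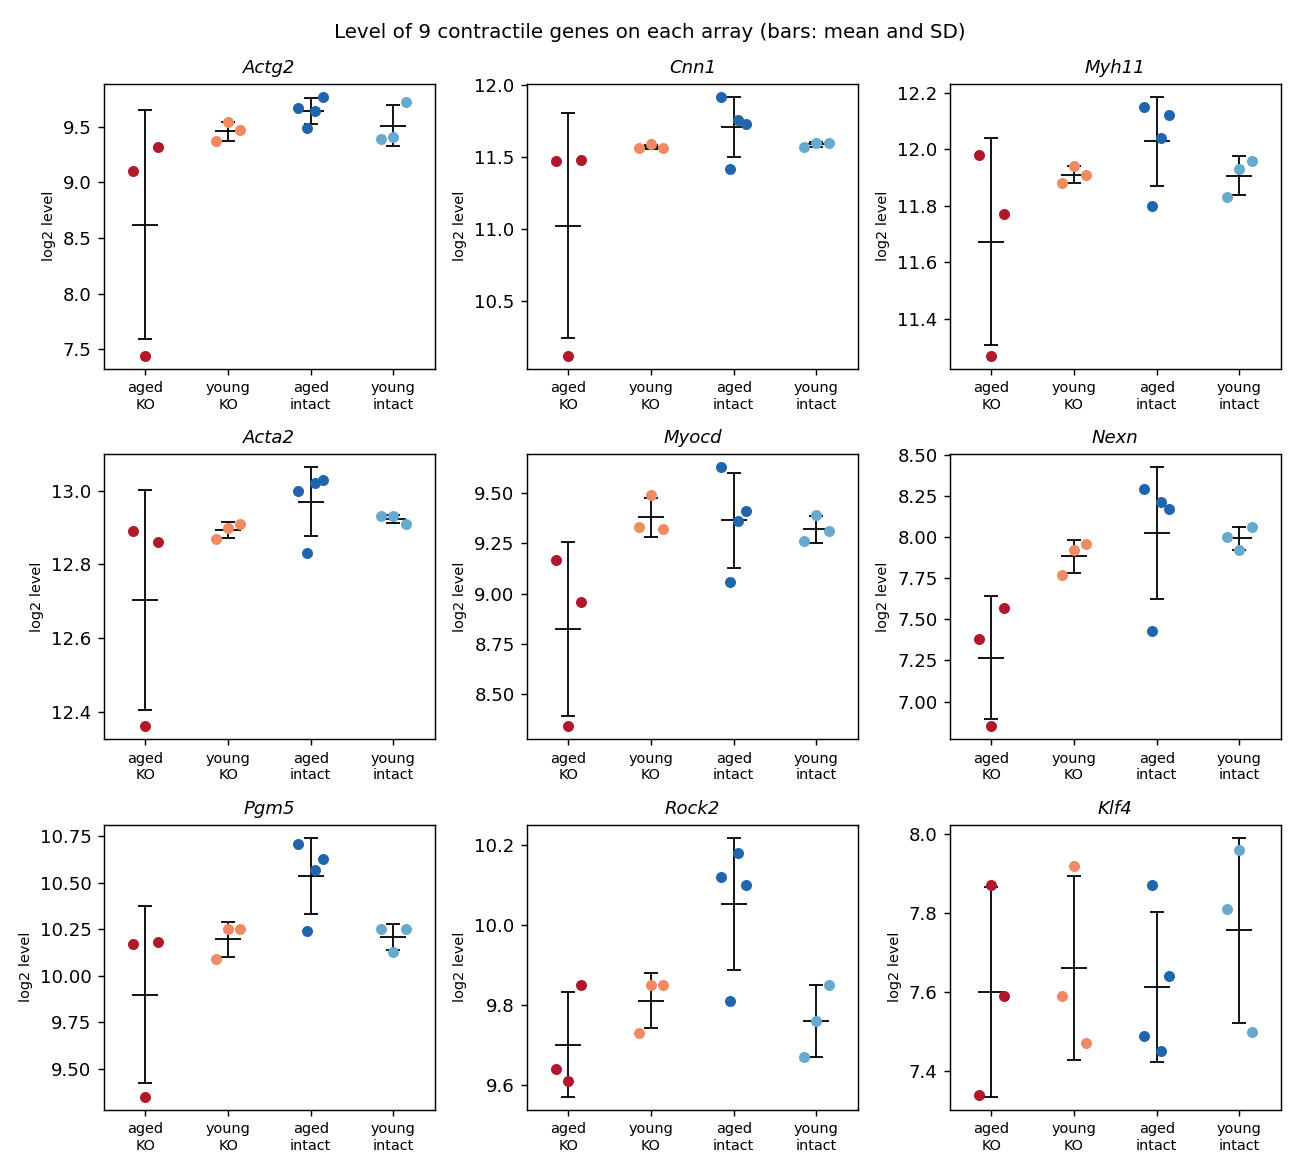
Points are single arrays, and bars give the mean and SD of each group (n = 3, 3, 4 and 3) for 9 contractile genes on a log2 scale, with KO for knockout. For 8 of the genes 1 aged knockout array, array 2, lies at the bottom of the panel, and for Klf4 it does not.

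A second array stood low among its own group. Aged MR-intact array 2 gave the lowest of the 4 aged MR-intact values for 29 of the 35 contractile genes (82.9%), against 27.5% of all features. Leaving it out widened the gap to the knockout: Rock2 then fell by 0.43 (limma adjusted p = 0.0439) and Nexn by 0.95 (limma adjusted p = 0.0338), both passing the test, in a fit that called 196 of all 21225 features. Without aged knockout array 3, which is 1 of the arrays nearer the MR-intact range, 4 genes passed: Actg2 (-1.37), Rock2 (-0.43), Nexn (-0.91) and Pgm5 (-0.78), with limma adjusted p from 0.0289 to 0.0337, in a fit that called 1442 of all features. In the authors' deposited table the signed fold of aged knockout against aged wildtype is -1.77 for Actg2 (unadjusted p = 0.0335), -1.70 for Nexn (0.0137), -1.52 for Pgm5 (0.0175), -1.28 for Rock2 (0.0123) and -1.43 for Myocd (0.0309). Smtn has -1.37 (0.0378) there. Other defining genes did not reach an unadjusted p under 0.05 in that table: Acta2 has -1.19 (0.0835), Myh11 -1.26 (0.0669), Tagln -1.31 (0.0565) and Cnn1 -1.49 (0.0645).

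Aging in knockout aorta also gave mostly negative values. Aged knockout was below young knockout for 34 of the 35 genes, with a median log2 difference of -0.25 (0.00 over all features). None passed, while limma called 156 of all features (0.735%). An unadjusted p under 0.05 was reached by 7 lower genes and 1 higher gene (15.8% of all features), and the smallest limma adjusted p was 0.161, for Myocd. The aged arrays lay wholly below the young ones for 9 genes (8.38% of all features): Actg2, Ppp1r14a, Cnn1, Tpm1, Synm, Pdlim3, Pdlim7, Nexn and Myocd. Tpm4 alone lay wholly above (8% of all features), at 0.17 (limma adjusted p = 0.316). By size, the largest differences were -0.84 (SE 0.35) for Actg2, -0.61 (SE 0.21) for Nexn, -0.56 (SE 0.18) for Myocd and -0.55 (SE 0.28) for Cnn1. Next came -0.48 (SE 0.19) for Ppp1r14a, -0.45 (SE 0.22) for Pdlim3, -0.43 (SE 0.22) for Myh10 and -0.42 (SE 0.18) for Tpm1. The arrays of Myh10 overlapped. Without aged knockout array 2 the median was -0.04 and 28 of the 35 stayed below 0, with Myocd at -0.32 (limma adjusted p = 0.326) and Synm at -0.24 (limma adjusted p = 0.191).

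Aging in MR-intact aorta ran the other way for most genes. Aged MR-intact was above young MR-intact for 30 of the 35, with a median of 0.11 (0.01 over all features). Limma called 0 of the 35 and 50 of all features (0.236%), and an unadjusted p under 0.05 was reached by 2 higher genes and 1 lower gene (8.63% of all features). The 2 were Ppp1r12a at 0.30 (SE 0.11, limma adjusted p = 0.427) and Rock2 at 0.29 (SE 0.09, limma adjusted p = 0.355). Pgm5 stood at 0.33 (SE 0.18), Cald1 and Pdlim3 at 0.27, Lmod1 at 0.26 and Synpo2 at 0.25. Aged MR-intact arrays read 10.73, 10.35, 10.64 and 10.64 for Cald1, against 10.25, 10.31 and 10.41 on young ones. For Lmod1 they read 8.84, 8.25, 8.41 and 8.74, against 8.17, 8.34 and 8.39, and for Synpo2 10.64, 10.24, 10.44 and 10.66, against 10.22, 10.18 and 10.35 on young MR-intact arrays. Aged arrays 1, 3 and 4 lay above every young value for each of these 3 genes, and aged array 2 lay within the young range. Ppp1r12a and Tpm4 were the 2 genes whose aged arrays were wholly above the young ones (6.05% of all features), and Des the 1 wholly below (4.8% of all features). The gap of the first 2 was lost on rounding. Their lowest aged and highest young values both read 10.36 for Ppp1r12a and both read 9.40 for Tpm4. With arrays weighted by their fit, Ppp1r12a rose by 0.34 (limma adjusted p = 0.0416) and Rock2 rose by 0.34 (limma adjusted p = 0.0316), in a fit that called 489 of all features.

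Des gave the largest age difference of the 35 in MR-intact aorta, and the opposite sign. It read 8.37, 8.13, 8.06 and 8.46 on aged MR-intact arrays, against 9.08, 8.93 and 8.61 on young ones, with no overlap. In knockout aorta it read 8.18, 8.47 and 8.36 on aged and 8.54, 8.47 and 8.83 on young arrays. The log2 difference was -0.62 (SE 0.14, limma adjusted p = 0.12) in MR-intact and -0.28 (SE 0.14, limma adjusted p = 0.381) in knockout aorta, and the difference between these was 0.34 (SE 0.20, limma adjusted p = 0.661). In MR-intact aorta it passed the test with array weights (-0.64, limma adjusted p = 0.019) and without young MR-intact array 3 (-0.75, limma adjusted p = 0.0398), where 489 and 104 of all features were called.

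Desmin is shared with skeletal and cardiac muscle, and markers of those tissues moved with it. The mean log2 level of 35 striated muscle markers (21 skeletal and 14 cardiac) was 5.27, 5.31, 5.26 and 5.62 on aged MR-intact arrays, against 7.49, 7.08 and 5.43 on young ones. In knockout aorta it was 5.20, 5.59 and 5.49 on aged and 5.70, 6.03 and 6.80 on young arrays. Des was highest on the same 3 arrays as these markers, young MR-intact arrays 1 and 2 and young knockout array 3. Actc1, cardiac alpha actin, read 11.43 and 11.15 on young MR-intact arrays 1 and 2, and 7.91 on array 3. Young MR-intact array 3 had a striated mean of 5.43, inside the aged range of 5.20 to 5.62, and a Des level of 8.61, above all 7 aged arrays. With the striated mean as a covariate the aging difference of Des in MR-intact aorta was -0.27 (limma adjusted p = 0.726). The cause of the Des difference was not tested.

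**Figure D4:**
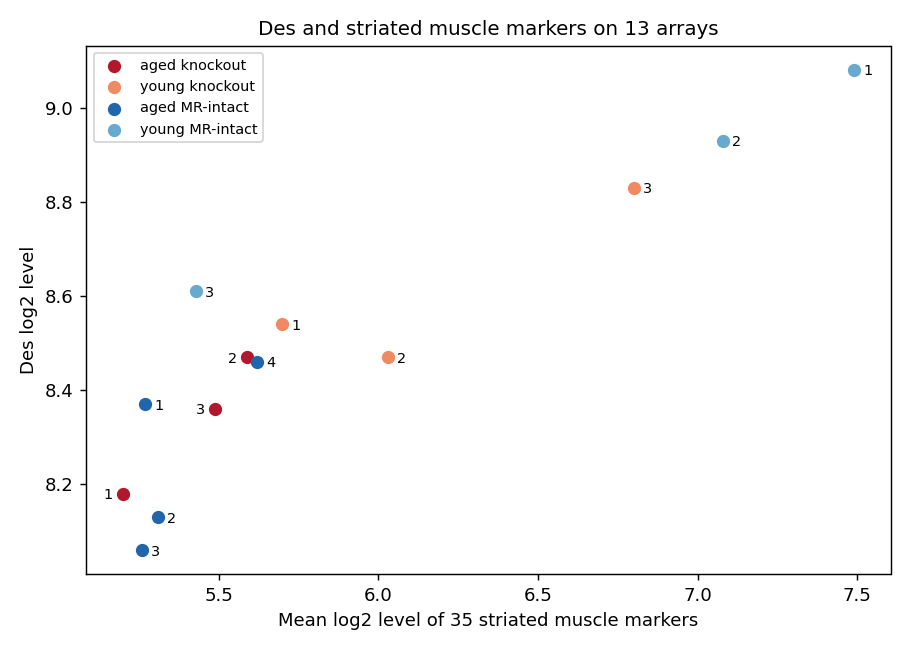
Each point is 1 of the 13 arrays, numbered by array and coloured by group; the horizontal axis gives the mean log2 level of 35 skeletal and cardiac muscle markers and the vertical axis the log2 level of Des. The 3 arrays with the most striated muscle signal, at 6.80, 7.08 and 7.49, have the highest Des levels, 8.83, 8.93 and 9.08, and the aged arrays lie at the lower left.

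The effect of age was then compared between genotypes, as aging in knockout minus aging in MR-intact aorta. The result was below 0 for 31 of the 35 genes, with a median of -0.40 (0.00 over all features), and -0.19 without aged knockout array 2. No contractile gene and no feature of the whole table passed (0%), and 9 contractile genes, all negative, had an unadjusted p under 0.05 (8.12% of all features). Those 9 were Rock2, Cald1, Ppp1r12a, Pgm5, Myocd, Pdlim3, Rock1, Nexn and Synm. By size, the largest values were -0.97 (SE 0.48) for Actg2, -0.72 (SE 0.30) for Pdlim3, -0.66 (SE 0.38) for Cnn1 and -0.65 (SE 0.29) for Nexn. Next came Pgm5 at -0.63 (SE 0.26), Synpo2 at -0.62 (SE 0.31), Myocd at -0.60 (SE 0.25) and Ppp1r14a at -0.56 (SE 0.26). Actg2, Cnn1, Synpo2 and Ppp1r14a were not among the 9. The smallest limma adjusted p among the 35 was 0.609. Des, Ppp1r12b, Tpm4 and Klf4 were the 4 above 0, at 0.34, 0.08, 0.05 and 0.09. Since aged knockout and aged MR-intact arrays enter this comparison and those above, these results share samples.

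In young mice the apparatus differed little between genotypes. Young knockout was above young MR-intact aorta for 15 genes and below it for 20, and the median was -0.02 (0.01 over all features). Differences lay between -0.26 (Des) and 0.12 (Mef2c), and limma called 0 of the 35 and 0 of all features (0%). No contractile gene had an unadjusted p under 0.05 (2.59% of all features). For Acta2 the difference was -0.03, with a 95% interval of -0.28 to 0.22, and for Myh11 0.00, with one of -0.32 to 0.32. Young knockout arrays lay wholly above young MR-intact arrays for Pdlim3, Filip1l and Mef2c (3 of 35, 5.43% of all features) and wholly below for Ppp1r12b and Tpm4 (2 of 35, 4.06% of all features). For Tpm4 the highest knockout and lowest MR-intact values both read 9.31 after rounding. Mef2c read 8.72, 8.70 and 8.75 on young knockout arrays, against 8.67, 8.56 and 8.58 on young MR-intact arrays. Ppp1r12b read 6.77, 6.72 and 6.77 on young knockout arrays, against 6.97, 6.87 and 6.79 on young MR-intact arrays. Tagln read 11.36, 11.47 and 11.42 in young knockout and 11.36, 11.35 and 11.51 in young MR-intact aorta, and Smtn 10.97, 10.89 and 10.97 in young knockout and 10.84, 10.95 and 11.04 in young MR-intact aorta, with full overlap. Csrp1 gave 12.01, 12.08 and 12.01 in young knockout and 12.05, 12.07 and 12.04 in young MR-intact aorta.

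Averaged over both ages, knockout was lower than MR-intact aorta for 34 of the 35 genes, with a median of -0.18 (0.01 over all features). No contractile gene and no other feature passed (0%), and 5 contractile genes, all lower, had an unadjusted p under 0.05 (10.9% of all features). These were Actg2 (-0.54), Nexn (-0.43), Tpm2 (-0.33), Pgm5 (-0.33) and Mylk (-0.22), and the smallest limma adjusted p was 0.371, for Nexn. The median was -0.10 without aged knockout array 2.

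Genes around the apparatus were read from further lists. Of 37 measured genes for other cytoskeletal and adhesion proteins of smooth muscle, all 37 were lower in aged knockout than in aged MR-intact aorta, with a median of -0.37 and 0 called. Over all features 43.6% were below 0 in this comparison, with a median of 0.02. Flnc (filamin C) differed by -0.70 (SE 0.20, limma adjusted p = 0.112) and Cnn3 (calponin 3) by -0.60 (limma adjusted p = 0.137). Here 32 of the 37 were at their lowest of all 13 arrays on aged knockout array 2. Among 27 genes of calcium entry, calcium release and membrane excitation 23 were lower in aged knockout aorta, with a median of -0.26 and 0 called. On aged knockout array 2, 13 of these 27 were at their lowest of all arrays (17.2% of all features) and 2 at their highest. Values without that array are not given for these lists. Kcnma1 and Kcnmb1, the pore and the beta subunit of the large-conductance calcium-activated potassium channel, differed by -0.61 (SE 0.16, limma adjusted p = 0.0903) and -0.75 (SE 0.26, limma adjusted p = 0.162). In aging MR-intact aorta 19 of these 27 genes were above 0 and 8 below, with a median of 0.09 (0.01 over all features). The largest differences ran against most of the list: Casq2 differed by -1.46 and Pln by -1.13, with limma adjusted p = 0.267 and 0.475. Both encode calcium-handling proteins that cardiac muscle also uses, and the cardiac markers ran with them, at a median of -1.32.

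On aged knockout array 2, 10 of 27 cofactors and regulators of SRF and myocardin were at their lowest of all arrays and 5 at their highest. Hey2, which encodes a repressor acting within the Notch pathway, gave -0.49 between the aged groups (SE 0.15, limma adjusted p = 0.123). For the 27 genes the median between the aged groups was -0.10, with 19 lower and 0 called. That median lay nearer 0 than the -0.39 of the contractile genes, a difference that was not tested.

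Among 14 constrictor receptors, 1 gene passed in any comparison. Ednra, the endothelin receptor of smooth muscle, fell by 0.71 in aged against young knockout aorta (SE 0.08, limma adjusted p = 0.00259). That comparison called 156 of all features (0.735%), and 1 in a fit of the compared groups only. The Ednra call was not followed through such alternatives. In aging MR-intact aorta 0 of the 14 were called, and the Ednra value there is not given. In each genotype 11 of the 14 receptors were lower with age. The medians were -0.28 in knockout and -0.21 in MR-intact aorta (0.00 and 0.01 over all features). Avpr1a, a vasopressin receptor, differed by -0.69 (SE 0.16, limma adjusted p = 0.139) between aged and young MR-intact aorta. Of 14 genes linked to modulated smooth muscle, 9 were above 0 with age in MR-intact and 7 in knockout aorta. Their medians were 0.10 and 0.00, against 0.01 and 0.00 over all features. The collagen genes Col1a1, Col3a1 and Col1a2 fell with age in both genotypes. They fell by 1.15, 0.80 and 0.97 in knockout and by 1.08, 0.77 and 0.71 in MR-intact aorta (limma adjusted p from 0.000765 to 0.00679). Tnfrsf11b (osteoprotegerin) rose by 0.88 with age in MR-intact aorta (SE 0.12, limma adjusted p = 0.00685). Between aged knockout and aged MR-intact aorta Tnfrsf11b differed by -0.68 (SE 0.12, limma adjusted p = 0.0518). Spp1 differed there by 1.32 (SE 0.67, limma adjusted p = 0.333). In that comparison 4 of the 14 genes were above 0 and 10 below, with a median of -0.09 and 0 called. Fibroblasts make these collagens too, and 9 fibroblast markers averaged 9.02 to 9.29 on aged knockout and 9.56 to 9.73 on young knockout arrays, against 9.43 to 9.57 on aged and 9.62 to 9.64 on young MR-intact arrays. The part of fibroblasts in the collagen values was not tested.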

How the data were processed

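Total RNA of aorta was measured on 13 arrays, grouped by the genotype and developmental stage labels. The authors deposited RMA log2 values for each gene and array, per the submitters' processing notes, which also name affy and limma; versions, platform and genome build are absent from those notes. The workbook columns were entered as a score because their headers are bare numbers; they differ by at most 0.0050 from a table rounded to 2 decimals that the authors deposited too. Per the file headers, the authors also deposited a signed fold change (a score) and an unadjusted p-value per comparison, whose test is unstated.

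The 35 contractile genes and all other gene lists were chosen with earlier results of these data known, so no list was tested. R 4.3.3 with limma 3.58.1 (lmFit, eBayes) fitted 1 coefficient per group to all 21225 features, with no filter on low values (residual degrees of freedom 9, prior 3.41). Tests were two-sided, and the calling threshold was 0.05 after Benjamini-Hochberg adjustment over all features. The SEs of aged knockout contrasts rest partly on tighter groups. Those of contrasts between other groups rest partly on the wider aged knockout group. The code was tested on simulated data. Values on every array are given for defining smooth muscle genes, the 8 genes with the largest difference in each comparison and those of opposite sign, where they stood out. From other lists, markers aside, called genes are named or else up to 2 with the largest difference. The list genes Hspb1, Ppp1cc, Hba-a1 and Hbb-bt are not analysed here, and 1 signalling list and 1 marker list are not reported here. No 2 arrays held identical values. The number of arrays limits the precision.

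Alternatives were median centring, another quantile normalization, removal of the dimmest features, the rounded table, array weights, a mean-variance trend with a robust prior, the striated muscle or B lymphocyte marker mean as a covariate, a fit of the compared groups only, each array left out in turn, and aged knockout arrays 1 and 2 left out together.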

Additional observations from a re-analysis of the deposited data

Results flagged for a closer look

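Aged MR-intact array 2 was far below the other 3 aged MR-intact arrays for 3 contractile genes by Dixon's outlier test at the 95% level. Acta2 read 12.83 there and at most 13.03 on the others, Myl6 read 11.66 against 11.99 to 12.05, and Nexn read 7.43 against 8.17 to 8.29. The test was run for all 35 genes in the aged MR-intact group, the only one with 4 arrays. It was not run in the groups of 3, so aged knockout array 2 was not put to it. Chance marks about 1 in 20 groups. These 3 genes share the array, so they are not separate events.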

How the results depend on the processing

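No contractile gene was called in young knockout against young MR-intact aorta, in aging knockout aorta, in the mean over both ages or in the difference of aging, under any alternative run. In aging MR-intact aorta 3 were called with array weights (Ppp1r12a, Rock2 and Des) and 0 to 1 with an array left out, the 1 being Des without young MR-intact array 3. Between the aged groups the number called was 0 to 4 with an array left out. With an array left out, the median log2 difference of the 35 ranged from -0.39 to -0.04 for aging in knockout, from -0.51 to -0.19 for knockout in aged aorta and from -0.51 to -0.19 for the difference of aging. The value nearest 0 came each time without aged knockout array 2. With the B lymphocyte marker mean as a covariate these medians were -0.56, -0.68 and -0.64; the cause was not tested. No called gene changed sign. Of the 35 genes 29 kept their sign under every alternative for knockout in aged aorta, 24 for aging in knockout, 22 for aging in MR-intact and 15 for knockout in young aorta. The number called over all features was less stable: for knockout in aged aorta it was 12, but 115 with median centring, 0 with the compared groups only and 3 to 1442 with an array left out. For aging in knockout it was 156, but 1 with the compared groups only, 4 with the B lymphocyte covariate and 14 to 885 with an array left out, and for aging in MR-intact 50, but 489 with array weights, 5 with the striated covariate and 14 to 104 with an array left out. No paired analysis was possible because no label states a pairing: array numbers were given in accession order within each group, the numbers in the sample titles differ on every array, and the labels do not say what those mark.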
